A study of Mus musculus with 24 samples.

Results

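Iron handling in plantaris muscle was examined through 8 genes: Tfrc, Slc11a2 and Slc25a37, which bring iron into the cell, across the endosomal membrane and into mitochondria; Fth1 and Ftl1, the ferritin subunits that store it; Slc40a1, which exports it; and Aco1 and Ireb2, the iron regulatory proteins. Each was taken as the row of the deposited read-count table whose Ensembl ID carries that mouse symbol, and all 8 of the 47643 rows were found. The samples were plantaris, a fast hindlimb muscle, from wild type C57BL/6 mice, 11 of them breathing normal air and 13 given tobacco smoke over 16 weeks. Age, sex, pooling and the length of the air exposure were not given in the sources used here, so p-values measure the spread between these samples. Reads came from the Lexogen QuantSeq 3′ kit, which counts transcripts near their poly(A) end.

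A mammalian cell takes up transferrin-bound iron through the transferrin receptor, moves it out of the endosome through the transporter encoded by Slc11a2, and uses most of it in mitochondria for haem and iron-sulfur clusters. Surplus iron is enclosed in ferritin or leaves through ferroportin. Muscle holds much of its iron in myoglobin and the respiratory chain. When iron is scarce, both iron regulatory proteins bind a hairpin called the iron-responsive element: in a 5′ untranslated region (UTR) they block translation, and in the 3′ UTR of the transferrin receptor they protect the message from decay. A read count can therefore follow the second kind of control, but not the first.

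The hairpins are shown here because their place in the message separates 3 of the 8 genes, with a match in the 5′ UTR, from Tfrc, with matches in the 3′ UTR. GENCODE M21 transcripts of 21875 coding genes were searched on the transcript strand for the loop CAGTGN with 5 paired bases on each side (G-U pairs allowed) and an unpaired C before the stem. Such a match lay in the 5′ UTR of 0.128% of these genes and in the 3′ UTR of 0.581%. The 5′ UTRs of Fth1, Ftl1 and Slc40a1 each held 1, and the 3′ UTR of Tfrc held 4. The pattern had no match in the UTRs of Slc11a2, Slc25a37, Aco1 or Ireb2. It allows no bulge or mismatch within the 5 pairs, so a hairpin of another shape would be missed. A gene without a match may therefore still carry an element, and the number of matches in Tfrc may be too low. The sites follow 5′ to 3′ on the gene's strand in DNA letters, on GRCm38, with the loop in capitals.
Fth1, 5′ UTR, chr19:9982732-9982760, plus strand: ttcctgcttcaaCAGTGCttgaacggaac
Ftl1, 5′ UTR, chr7:45459779-45459807, minus strand: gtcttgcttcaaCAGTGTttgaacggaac
Slc40a1, 5′ UTR, chr1:45925465-45925493, minus strand: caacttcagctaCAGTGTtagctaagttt
Tfrc, 3′ UTR, chr16:32631219-32631247, plus strand: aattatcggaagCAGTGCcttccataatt
Tfrc, 3′ UTR, chr16:32631598-32631626, plus strand: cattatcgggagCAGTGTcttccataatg
Tfrc, 3′ UTR, chr16:32631663-32631691, plus strand: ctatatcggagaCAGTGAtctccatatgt
Tfrc, 3′ UTR, chr16:32631710-32631738, plus strand: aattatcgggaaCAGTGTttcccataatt

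Total counts ranged from 2515697 to 4528845 per sample, so that 3 counts corresponded to 0.662 to 1.19 CPM (read counts scaled to library size). The sample numbers in the column headers form 1 unbroken series for smoke and another for air, all on 1 lane. Position in this numbering and exposure cannot be told apart. All 10 fibre markers (Acta1, Ckm, Myh4 and others) had reads in every library. Blood, macrophage, endothelial, fibroblast, Schwann cell and fat markers were also present, and in bulk tissue fewer cells of a type and less RNA per cell cannot be told apart. By edgeR, genes of the erythroid and Schwann cell lists were called, and their values stand beside the iron genes below. Of 6 fibroblast markers 5 had negative fold changes, 0 were called by edgeR and 2 had an unadjusted p under 0.05 (Col1a1 at −0.37 and Col3a1 at −0.32 on the log2 scale), and 1 was called with the replicate block. Of the 10 fibre markers 0 were called by edgeR, 2 had an unadjusted p under 0.05, and 1 was called by DESeq2 and 1 by limma voom.

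None of the 8 iron genes passed the test between smoke and air. In edgeR's quasi-likelihood test, with p-values adjusted by Benjamini and Hochberg's method over 10159 genes (BH-adjusted p), 0 of 8 had a BH-adjusted p under 0.05 and were called, against 1.92% of all tested genes. DESeq2 and limma voom also called 0. At an unadjusted p under 0.05 there were 2 of 8, Tfrc and Slc25a37, both lower under smoke, where 15.5% of all genes lay under that value in either direction and 7.95% on the lower side. Of the 8 log2 fold changes, 4 were positive and 4 negative, with a median of −0.017 against 0.0066 over all tested genes. The 3 uptake genes and Ftl1 had the negative values. Slc40a1, Aco1, Ireb2 and Fth1 had the positive ones, of which Fth1 turned negative under 3 of 12 alternatives and Ireb2 without smoke replicate 4 (log2 fold change −0.029).

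**Figure D1:**
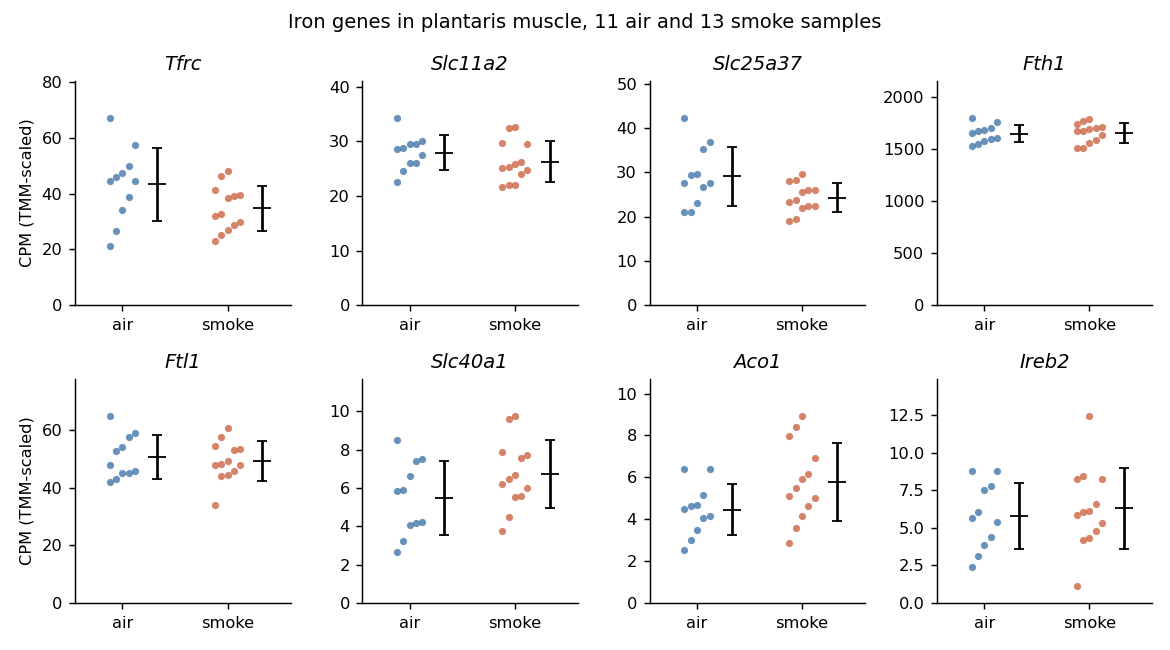
Each panel plots 1 iron gene in CPM on TMM-scaled libraries, with 1 point per sample (11 air, blue; 13 smoke, orange) and the mean ± SD beside the points. The groups overlap in all 8 panels, and Fth1 lies between 1507 and 1796 CPM.

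Tfrc, the transferrin receptor that carries iron into the cell, lies on chromosome 16 with no annotated gene over it. It ranged from 21.1 to 67.0 CPM in air (median 44.5) and from 23.1 to 48.2 CPM in smoke (median 32.8). The groups overlapped: 3 air samples lay above every smoke sample, 1 air sample (replicate 11) lay below every smoke sample, and 11 of 13 smoke samples were under the air mean. The means were 43.4 ± 13.1 (SD, n = 11) and 34.8 ± 8.06 (SD, n = 13) CPM, a log2 fold change of −0.33 (SE 0.14, 95% interval −0.60 to −0.049). This did not pass (edgeR BH-adjusted p = 0.220). Among the 8 genes it was one of the more variable, with a biological coefficient of variation of 22.1%, above that of 82.9% of tested genes.

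Slc25a37 encodes mitoferrin 1, the carrier that takes iron through the inner mitochondrial membrane and is known for its high level in developing red cells. It ranged from 21.0 to 42.2 CPM in air (median 27.5) and from 19.1 to 29.7 CPM in smoke (median 23.8). The spread in air was the wider one, since 4 air samples exceeded every smoke sample, 2 smoke samples lay below every air sample, and 12 of 13 smoke samples were under the air mean. The means of 29.1 ± 6.67 (SD, n = 11) and 24.3 ± 3.31 CPM (SD, n = 13) gave a log2 fold change of −0.26 (SE 0.10, 95% interval −0.47 to −0.053, edgeR BH-adjusted p = 0.188). Its relative Slc25a28, mitoferrin 2, which is made in many tissues, had a mean of 16.7 CPM under air and 18.2 CPM under smoke (log2 fold change 0.12, SE 0.12, edgeR BH-adjusted p = 0.705).

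Slc11a2, the divalent metal transporter that moves iron out of the endosome, ranged from 22.5 to 34.2 CPM in air (median 28.6) and from 21.7 to 32.6 CPM in smoke (median 25.4). The ranges coincided almost fully, with 3 smoke samples below the lowest air sample and 1 air sample above the highest smoke sample. Its log2 fold change was −0.086 (SE 0.082, 95% interval −0.25 to 0.080, edgeR BH-adjusted p = 0.681). The gene overlaps Gm5475 on the opposite strand, which had 1589 reads against its own 2254, and because strand use in counting was not stated its counts are uncertain.

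Fth1, the heavy ferritin subunit that oxidises iron for storage, was the steadiest of the 8 genes. It ranged from 1533 to 1796 CPM in air (median 1655) and from 1507 to 1793 CPM in smoke (median 1674). The groups covered nearly the same range, at means of 1651 ± 83.6 (SD, n = 11) and 1659 ± 94.2 CPM (SD, n = 13). The fold of smoke over air was 1.00, and its 95% interval ran from 0.947 to 1.07 (edgeR BH-adjusted p = 0.963) with 4356 to 8087 Fth1 reads per library. Its biological coefficient of variation of 7.60% was above that of only 0.876% of tested genes, a rank not matched for level.

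Ftl1, the light subunit that helps form the iron core, ranged from 42.0 to 65.0 CPM in air (median 48.1) and from 34.1 to 60.9 CPM in smoke (median 48.2). The groups overlapped, with 1 smoke sample under the lowest air sample and 1 air sample over the highest smoke sample. The fold of smoke over air was 0.973, with a 95% interval of 0.866 to 1.09 (edgeR BH-adjusted p = 0.875). Both ferritin genes have near-identical processed copies in the genome. The 13 other ferritin-named rows of the table held 41 reads in all, in 4 rows. Of these rows only Ftl2-ps, Fth-ps2 and Ftl1-ps2 are annotated as processed copies, and most of the others belong to the Fthl17 family. Copies under other names were not counted. How the authors' counting treated reads that fit several copies was not given in the sources used here. Ftl1 counts are therefore uncertain, as the annotation also places Gm10252 on its opposite strand.

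Slc40a1, ferroportin, is the known iron exporter and is abundant in macrophages. It ranged from 2.68 to 8.50 CPM in air (median 5.83) and from 3.75 to 9.76 CPM in smoke (median 6.46), from 8 to 44 reads per library. The higher values lay in smoke, with 11 of 13 smoke samples above the air mean, but the ranges overlapped for all except 2 smoke samples at the top and 2 air samples at the bottom. The log2 fold change of 0.28 (SE 0.18, 95% interval −0.077 to 0.64) did not pass (edgeR BH-adjusted p = 0.476). Of the macrophage markers, all 8 tested had negative fold changes, 0 were called by edgeR (0 also at an unadjusted p under 0.05), and the sum of 13 markers ranged from 101 to 166 CPM in air and from 117 to 164 CPM in smoke, with none of them at 0 throughout. Slc40a1 against the macrophage score gave r 0.25 and rho 0.46 in air (n = 11) and r 0.30 and rho 0.14 in smoke (n = 13), with permutation p of r = 0.458 and 0.328 (adjusted p = 0.814 and 0.749). When the 2 farthest samples were left out r was 0.83 in air and −0.42 in smoke, so these values rest on few samples, and the part of macrophages in the Slc40a1 values was not tested.

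Aco1 and Ireb2 encode iron regulatory proteins 1 and 2, of which the former is also the cytosolic aconitase when it holds an iron-sulfur cluster. Aco1 ranged from 2.52 to 6.39 CPM in air (median 4.49) and from 2.88 to 8.92 CPM in smoke (median 5.49). For Aco1, 4 smoke samples exceeded the highest air sample and 10 of 13 exceeded the air mean, and the log2 fold change was 0.34 (SE 0.18, 95% interval −0.032 to 0.71, edgeR BH-adjusted p = 0.376). Ireb2 ranged from 2.42 to 8.80 CPM in air (median 5.65) and from 1.10 to 12.4 CPM in smoke (median 6.02). The lowest and the highest Ireb2 values were both smoke samples, replicates 10 and 4, and the former rested on 3 reads. Its log2 fold change was 0.090 (SE 0.22, 95% interval −0.36 to 0.54, edgeR BH-adjusted p = 0.900). There were 8 to 28 reads of Aco1 and 3 to 39 of Ireb2 per library, and for Ireb2 any fold of smoke over air between 0.780 and 1.45 lay within the 95% interval.

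Ratios within a sample hardly depend on how libraries are scaled (a prior count of 2 was added), and 3 were compared: the ferritin subunits, the uptake receptor with the exporter, and both regulators. The log2 ratio of Tfrc to Slc40a1 was lower under smoke. It ranged from 1.94 to 3.38 in air (median 3.05) and from 1.80 to 2.82 in smoke (median 2.21). All 13 smoke samples lay under the air mean, although 5 air samples lay inside the smoke range. The means were 2.87 ± 0.48 (SD, n = 11) and 2.28 ± 0.33 (SD, n = 13), a difference of −0.58 ± 0.17 (SE; two-sided permutation test, p = 0.0028, Benjamini-Hochberg adjusted p over the 3 ratios 0.0084). This test covers 3 ratios only, neither gene passed alone over all genes, and the ratio rests on 8 to 44 Slc40a1 reads per library. With the erythroid marker score as a covariate, chosen after the values were seen, the difference was −0.50 and the adjusted permutation p 0.0599 (range over 6 alternatives 0.00696 to 0.0599).

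The ratio of the ferritin subunits stayed within the replicate spread, with log2 means of 5.02 ± 0.23 (SD) over the 11 air samples and 5.06 ± 0.23 (SD) over the 13 smoke samples (difference 0.045 ± 0.094 SE, permutation p = 0.634, adjusted p = 0.634). The log2 ratio of Aco1 to Ireb2 averaged −0.29 ± 0.63 (SD) over the 11 air samples and −0.040 ± 0.76 (SD) over the 13 smoke samples (difference 0.25 ± 0.28 SE, permutation p = 0.391, adjusted p = 0.587). Its spread was the widest of the 3: the difference was 0.096 without smoke replicate 10, ran up to 0.36 when other samples were left out in turn, and was −0.35 with the Schwann cell score as a covariate. The ferritin difference ran from 0.0048 to 0.082 when 1 sample was left out.

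**Figure D2:**
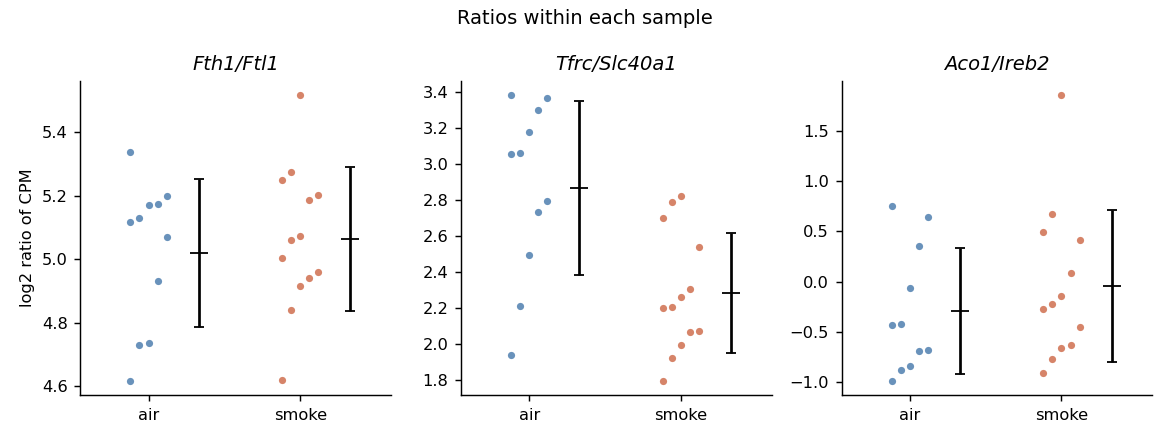
Log2 ratios of CPM within each sample for 3 pairs of iron genes, with 1 point per sample and the mean ± SD beside the points; each vertical axis has its own range and does not start at 0. For Tfrc/Slc40a1 the smoke samples lie between 1.80 and 2.82, all under the air mean of 2.87, and 5 air samples lie within that range; the groups of the other pairs overlap.

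Some erythroid markers were called lower under smoke. Of 11 erythroid markers with a row, 6 were tested, all with negative fold changes, and 3 were called lower under smoke: Hbb-bs, Hbb-bt and Hba-a2, at log2 fold changes of −0.84, −0.73 and −0.67 (edgeR BH-adjusted p = 0.0142, 0.0229 and 0.0369). With the replicate block 2 of 6 were called. Hba-a1, a near-identical copy of Hba-a2 with more reads (17618 against 4411), had a log2 fold change of −0.14 (edgeR BH-adjusted p = 0.548), and Bpgm, an enzyme of red cell glycolysis, one of −0.045 (edgeR BH-adjusted p = 0.825). How reads divide among the globin copies is uncertain. The summed erythroid markers ranged from 608 to 1576 CPM in air and from 482 to 1017 CPM in smoke, and the red cell membrane marker Epb42 was at 0 in 23 of 24 libraries.

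Among air samples Slc25a37 was higher where the erythroid score (the mean log2 CPM of its 6 tested markers) was higher, at Pearson's r 0.79 (n = 11, permutation p = 0.00405, adjusted p = 0.130 over 32 relations) and Spearman's rho 0.84 (permutation p = 0.00205, adjusted p = 0.0656). Without the 2 samples farthest from the median score r was 0.84. The relation did not pass adjustment, and among smoke samples r was −0.12 and rho −0.15 (n = 13, permutation p = 0.697 and 0.629, adjusted p = 0.875 and 0.831). With the erythroid score as a covariate the log2 fold change of Slc25a37 was −0.096 (edgeR BH-adjusted p = 0.818, range over 12 alternatives 0.130 to 0.818) and that of Tfrc −0.19 (adjusted p = 0.696, range over 12 alternatives 0.170 to 0.696). Under the same covariate Aco1 was at 0.53 in place of 0.34 (edgeR BH-adjusted p = 0.269, range over 12 alternatives 0.269 to 0.951), Ireb2 at 0.0044 in place of 0.090 (edgeR BH-adjusted p = 0.997, range over 12 alternatives 0.653 to 0.997) and Slc40a1 at 0.26 in place of 0.28. The mean score was 6.69 in air and 6.19 in smoke, so this covariate and exposure share part of their variation, and the part of blood in these fold changes was not tested. Aco1 against the score in smoke gave r 0.60 and rho 0.53 (n = 13, permutation p = 0.0307 and 0.0651, adjusted p = 0.491 and 0.443), and r was 0.21 once the 2 farthest samples were left out, so the relation rests on those samples. For Tfrc r was 0.22 in air and 0.30 in smoke and rho 0.37 and 0.51 (permutation p of r = 0.511 and 0.317, of rho 0.264 and 0.0817). Leaving out the 2 farthest samples gave r −0.012 in air and 0.42 in smoke.

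**Figure D3:**
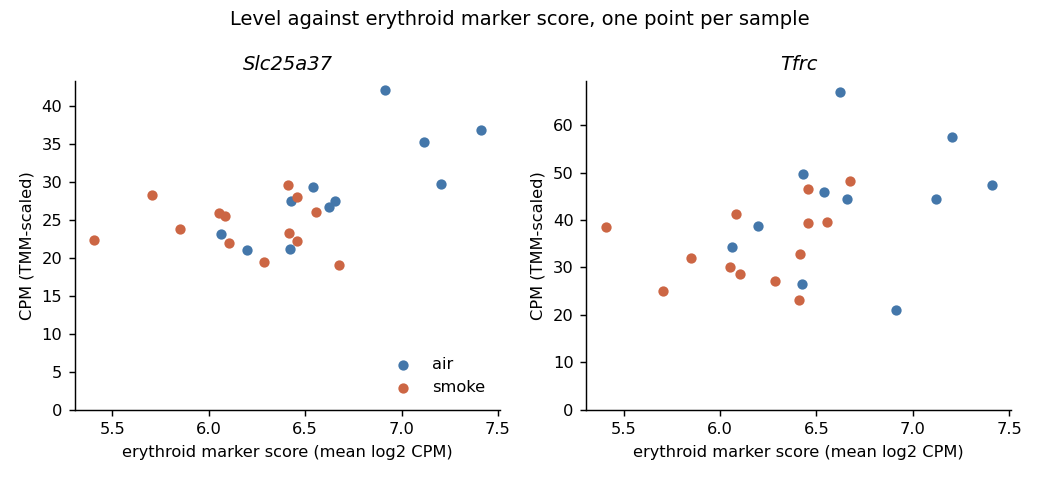
CPM of Slc25a37 (left) and Tfrc (right) against the erythroid marker score, with 1 point per sample (air, blue; smoke, orange). The highest Slc25a37 values belong to air samples with high scores, and among smoke samples r is −0.12.

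Schwann cell markers also moved with exposure: all 5 tested had positive fold changes and 3 were called higher by edgeR, Pmp22 and Prx among them. DESeq2 called 2 of the 5, and limma voom, the replicate block and the erythroid covariate 1 each. The 6 markers summed to 118 to 277 CPM in air and 178 to 856 CPM in smoke, with none at 0 throughout. Prx overlaps Gm15541 on the opposite strand, which had 895 reads against its own 548, so its counts and its part in the score are uncertain. With their score as a covariate, chosen after the values were seen, the log2 fold change of Aco1 was 0.068 in place of 0.34 (edgeR BH-adjusted p = 0.951, range over 12 alternatives 0.269 to 0.951), while that of Slc40a1 was 0.48 in place of 0.28 (edgeR BH-adjusted p = 0.349, range over 12 alternatives 0.349 to 0.681). Ireb2 was at 0.36 in place of 0.090, Ftl1 at −0.10 in place of −0.040 and Slc11a2 at −0.031 in place of −0.086 (edgeR BH-adjusted p = 0.653, 0.777 and 0.952, the ranges over 12 alternatives being 0.653 to 0.997, 0.777 to 0.955 and 0.613 to 0.952). The mean Schwann cell score was 4.59 in air and 5.29 in smoke, so this covariate and exposure share part of their variation. The part of nerve tissue in these values was not tested.

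Among themselves the 8 genes showed no relation that passed adjustment. Of 56 relations (28 pairs in each group) 0 passed Benjamini-Hochberg adjustment and 2 had an unadjusted permutation p of r under 0.05. The strongest was between Slc40a1 and Aco1 in air, at Pearson's r 0.69 and Spearman's rho 0.70 (n = 11, permutation p = 0.0188 and 0.0191, adjusted p = 0.615 and 0.545). Leaving out the 2 samples with the most extreme Slc40a1 values gave r 0.65. For Tfrc and Slc40a1 r was 0.49 in air and 0.54 in smoke and rho 0.42 and 0.57 (permutation p of r = 0.127 and 0.0553, adjusted p = 0.615 for each). Without the 2 farthest samples r was 0.11 in air and 0.68 in smoke, so the value in air rests on those samples.

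The genes whose deviations from the group means were most like those of each iron gene were found over 24 samples, as a description in which all points share library depth and scaling. Picked as the highest of all tested genes, they have a high r by choice, and r was not tested here. For Tfrc they were Chmp5, Ryk and Trp53inp2 (r 0.77, 0.74 and 0.74), and for Slc25a37 Abca8a, BC031181 and Pgam2 (r 0.75, 0.74 and 0.74). For Slc11a2 they were Smox, Phka1 and Ccdc186 (r 0.71, 0.71 and 0.65). Each of these lists was separate from the others, and none of them held another of the 8 iron genes. Fth1 was most like Trim27, Fkbp9 and Rhou (r 0.76, 0.73 and 0.72) and Ftl1 most like Hp, Fads3 and Dgat2 (r 0.71, 0.71 and 0.70). Slc40a1 was most like Paics, Abcf2 and Ranbp9 (r 0.77, 0.76 and 0.76). Of the regulators, Aco1 was most like D530018E20Rik, Pxdc1 and Pou3f1 (r 0.77, 0.74 and 0.73) and Ireb2 most like Pold3, Yipf4 and Tsc1 (r 0.82, 0.82 and 0.80). Among these 24 genes Smox, which encodes spermine oxidase, was called higher (166 CPM in air, 259 CPM in smoke, edgeR BH-adjusted p = 0.0259). Dgat2, an enzyme of triglyceride synthesis, was called lower (45.4 and 34.5 CPM, edgeR BH-adjusted p = 0.0329). Of all tested genes 0.728% were called higher and 1.19% lower.

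The wider iron pathway was covered by 6 lists holding 114 other genes, of which 92 were tested. Under smoke 1 was called higher (Ndrg1) and 2 lower (Mb and Slc25a39), by edgeR over all genes, where 0.728% of all tested genes were called higher and 1.19% lower. Of the 92, 40 had positive and 52 negative fold changes, with a median log2 fold change of −0.023 against 0.0066 over all tested genes. The plot of fold changes sets the 8 genes beside those named from these lists.

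**Figure D4:**
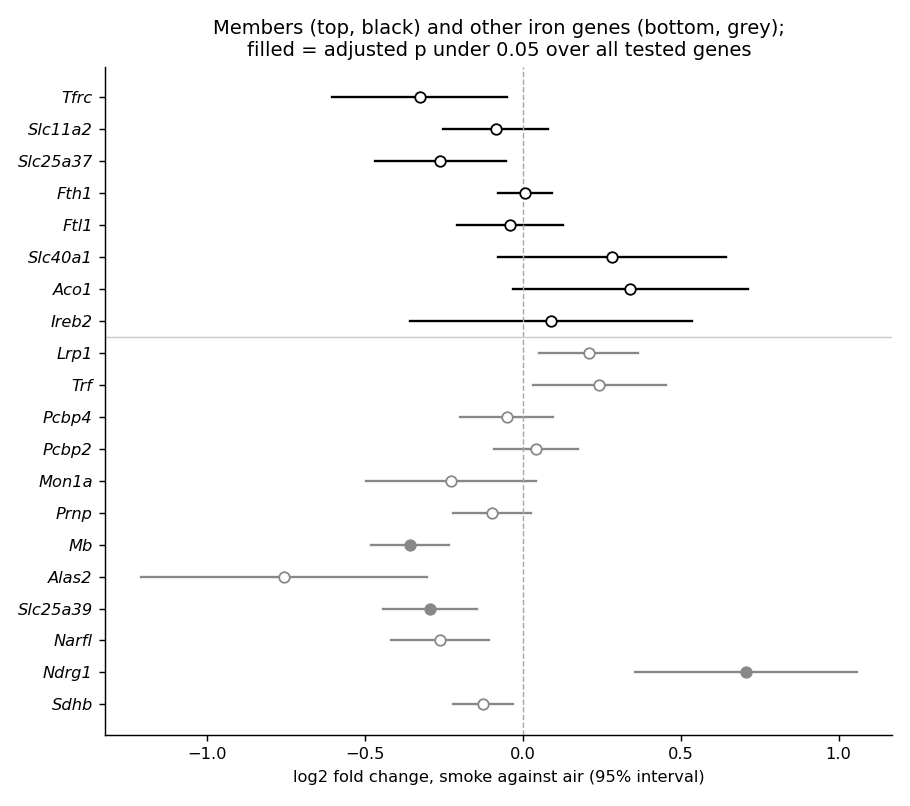
Log2 fold change of smoke against air with its 95% interval for the 8 iron genes (top, black) and for the 12 genes named from the wider pathway (bottom, grey); filled points passed an adjusted p under 0.05 over all tested genes. The 8 points at the top are all open, and Mb, Slc25a39 and Ndrg1 are filled.

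In uptake, 0 of 13 tested genes were called by edgeR, DESeq2 or limma voom. Against 15.5% of all tested genes by edgeR, 2 of 13 had an unadjusted p under 0.05 in each of the 3 tools, on the same counts. By edgeR they were Lrp1, an endocytic receptor that takes up haem-haemopexin, with 0.21 on the log2 scale (SE 0.077, edgeR BH-adjusted p = 0.156), and Trf, transferrin itself, at 0.24 (SE 0.10, edgeR BH-adjusted p = 0.233). With the Schwann cell score as a covariate Lrp1 was at 0.045 and Trf at 0.072 (edgeR BH-adjusted p = 0.904 and 0.880, the ranges over 12 alternatives being 0.111 to 0.904 and 0.126 to 0.880), beside the higher Schwann cell markers given above. Trf ranged from 31.8 to 58.1 CPM in air (median 35.4) and from 37.7 to 62.2 CPM in smoke (median 48.4). The groups overlapped in part, with 6 air samples below every smoke sample and 2 smoke samples above every air sample. The second receptor Tfr2 had 6 reads in 24 libraries and was not tested.

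In storage and ferritin turnover 0 of 7 tested genes were called by edgeR, DESeq2 or limma voom, 0 of them at an unadjusted p under 0.05. Pcbp2 and Pcbp4, poly(C)-binding proteins of a family that includes the iron chaperones of ferritin, had the smallest p-values of the list, at log2 fold changes of 0.041 and −0.051 (edgeR BH-adjusted p = 0.829 and 0.804). Leaving out 1 sample moved them between 0.00083 and 0.074 and between −0.090 and −0.027. Ncoa4, the receptor that sends ferritin to the lysosome, had only 15 reads in all and mitochondrial ferritin, Ftmt, had 1, so neither was tested.

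In export and systemic control 0 of 8 tested genes were called by edgeR, DESeq2 or limma voom, again 0 at an unadjusted p under 0.05. Mon1a, which takes part in bringing ferroportin to the surface, was at −0.23 (SE 0.13, edgeR BH-adjusted p = 0.435) and at −0.11 without air replicate 11, and Prnp, the prion protein, at −0.097 (SE 0.061, edgeR BH-adjusted p = 0.479). Haemojuvelin (Hfe2 in the table), the co-receptor of hepcidin induction that muscle also makes, averaged 472 CPM under air and 466 CPM under smoke (log2 fold change −0.020, SE 0.045, edgeR BH-adjusted p = 0.892). Hamp, which encodes hepcidin and is known from liver, had 0 reads.

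Of 19 tested genes of haem synthesis, transport and breakdown, 10 had positive and 9 negative fold changes, and 1 was called, lower under smoke. An unadjusted p under 0.05 was found for 4 lower and 1 higher, against 7.95% and 7.55% of all tested genes. Mb, the oxygen-binding haem protein of muscle, ranged from 5861 to 8020 CPM in air (median 7720) and from 4953 to 6632 CPM in smoke (median 5381). All 13 smoke samples lay under the air mean and 9 under the lowest air sample, and the log2 fold change was −0.36 (SE 0.061, edgeR BH-adjusted p = 0.00107). Beside it, the fast fibre myosins Myh2, Myh4 and Myh1 had log2 fold changes of −0.27, 0.16 and 0.0025, and the slow fibre myosin Myh7 one of 0.15. None of these passed (edgeR BH-adjusted p = 0.0627, 0.228, 0.993 and 0.875). The part of fibre type in the Mb value was not tested. Mb overlaps Apol6 on the opposite strand, which had 5154 reads against its 525908. Alas2, the erythroid form of the enzyme that starts haem synthesis, whose message also carries a 5′ iron-responsive element, ranged from 5.31 to 25.0 CPM in air and from 2.22 to 11.5 CPM in smoke.

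The groups of Alas2 overlapped, with 12 of 13 smoke samples under the air mean, and its log2 fold change of −0.75 (SE 0.22) did not pass (edgeR BH-adjusted p = 0.0672, range over 12 alternatives 0.0227 to 0.974). Without air replicate 4, air replicate 10 or smoke replicate 6 it passed, at adjusted p = 0.0464, 0.0371 and 0.0446. DESeq2 (adjusted p = 0.0387), no expression filter (0.0227) and 1 surrogate variable (0.0410) also called it, and with the erythroid score, of which it is a part, as covariate the value was 0.023. The housekeeping form Alas1 averaged 18.2 CPM under air and 19.4 CPM under smoke (log2 fold change 0.086, SE 0.14, edgeR BH-adjusted p = 0.827).

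Among 33 tested genes of iron-sulfur cluster assembly, 23 had negative and 10 positive fold changes, with a median of −0.069 on the log2 scale, and 1 was called. At an unadjusted p under 0.05 there were 7 lower and 0 higher, against 7.95% and 7.55% of all tested genes. The called gene was Slc25a39, a mitochondrial carrier needed for glutathione import, which ranged from 33.9 to 50.1 CPM in air (median 43.5) and from 28.2 to 41.0 CPM in smoke (median 34.2). All 13 smoke samples lay under its air mean, and the log2 fold change was −0.29 (SE 0.074, edgeR BH-adjusted p = 0.0274, range over 12 alternatives 0.00867 to 0.161). The call was lost without air replicate 6, air replicate 7 or smoke replicate 8 (adjusted p = 0.0562, 0.0523 and 0.0507) and with the erythroid or macrophage score as a covariate (0.161 and 0.0552), while the log2 fold change in these 5 fits stayed between −0.28 and −0.27.

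Narfl, part of the cytosolic iron-sulfur targeting machinery, had a log2 fold change of −0.26 (SE 0.076) and did not pass (edgeR BH-adjusted p = 0.0632, range over 12 alternatives 0.0359 to 0.262). It passed by DESeq2 (adjusted p = 0.0359) and without air replicate 1, smoke replicate 3 or smoke replicate 6 (edgeR BH-adjusted p = 0.0487, 0.0358 and 0.0462). It overlaps Haghl on the opposite strand, which had 929 reads, so its counts are uncertain.

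Of 12 tested genes with known iron-responsive elements or iron-dependent enzymes behind them, 1 was called, higher under smoke. Ndrg1, a stress gene induced by hypoxia and iron chelation and also abundant in Schwann cells, ranged from 18.0 to 34.1 CPM in air (median 25.8) and from 20.8 to 90.3 CPM in smoke (median 33.8). Its smoke values were the wider ones, and 12 of 13 lay above the air mean, and the log2 fold change was 0.71 (SE 0.17, edgeR BH-adjusted p = 0.0229, range over 12 alternatives 0.000834 to 0.890). The value was 0.078 with the Schwann cell score, itself higher under smoke, as a covariate, and the call was lost there. The call was also lost, with the log2 fold change at 0.59, 0.54 and 0.83, by limma voom, with the replicate block and with the erythroid score as a covariate (BH-adjusted p = 0.0634, 0.0946 and 0.0526). Sdhb, the iron-sulfur subunit of succinate dehydrogenase, did not pass at −0.13 (SE 0.047, edgeR BH-adjusted p = 0.157).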

How the data were processed

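The deposited values were raw read counts per Ensembl gene ID for 24 plantaris samples, from QuantSeq 3′ libraries per the labels' protocols. STAR, DESeq2 and mm9 are named in the submitters' processing notes without a role. Not given in the sources used here were the counting tool, annotation, strand setting and whether molecular identifiers were used. GENCODE M21 (GRCm38) gave symbols for 99.1% of 47643 IDs, chromosomes, overlaps and UTRs; gene coordinates are not printed because the builds differ.

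Groups came from the sample titles. Genes were filtered with filterByExpr (minimum count 10), scaled by TMM and tested with edgeR 4.0.16 (quasi-likelihood, R 4.3.3) with all 24 samples in 1 fit and group as the only term. Benjamini-Hochberg adjustment ran over 10159 genes, with calls under 0.05. CPM values use TMM-scaled library sizes. Ratios are differences of log2 CPM (prior count 2), tested by two-sided permutation (100000 resamples). Alternatives used DESeq2 1.42.0, limma 3.58.1 voom, sva 3.50.0, other scalings and filters, marker scores as covariates, a replicate block and each sample left out. No pair of samples agreed within sampling noise (133 within-group pairs, chi-square per gene 2.52 to 18.5).

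The members and lists were chosen with earlier results of these data known. Named were all 8 iron genes, every called gene and the 2 with the smallest p of each wider list, and the 3 genes most correlated with each iron gene over deviations from group means; Slc25a28, Alas1, Hfe2, the untested genes, Smox and Dgat2 as called, and the cell type markers were singled out after their values were seen.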

Additional observations from a re-analysis of the deposited data

How the results depend on the processing

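None of the 8 iron genes was called under any of 12 alternatives or in any of 24 fits that left out 1 sample. The log2 fold changes of Tfrc, Slc25a37, Slc11a2, Slc40a1 and Aco1 kept their sign in all of these. That of Fth1 was −0.0024 without an expression filter, −0.0030 with a filter of 1 CPM and −0.00082 with the replicate block, and ran from −0.0059 to 0.016 when 1 sample was left out. Over the same leave-one-out fits Ftl1 ran from −0.070 to 0.00039 and Ireb2 from −0.029 to 0.17. With the erythroid score as a covariate Alas2 was at 0.023 and the difference of the Tfrc/Slc40a1 ratio, for which the covariate was chosen after seeing the data, at −0.50. With the Schwann cell score, chosen after seeing the data, the difference of the Aco1/Ireb2 ratio was −0.35. Leaving out 1 sample kept the Tfrc/Slc40a1 difference between −0.68 and −0.53 (adjusted permutation p 0.0015 to 0.0183). Over all genes 195 were called (74 higher, 121 lower). DESeq2 called 318 (208 lower), the erythroid covariate left 60 (20 higher, 40 lower) and the Schwann cell covariate 68 (20 higher, 48 lower). Leaving out 1 sample gave 141 to 254 calls, 47 to 103 higher (47 without air replicate 3) and 92 to 163 lower. The cause of these shifts was not tested.

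Replicate numbers did not pair the samples: over 11 same-numbered pairs the correlation of deviations had a mean of −0.0059 (−0.275 to 0.140), and 2 air samples correlated best with their own number. With the replicate block the calls numbered 138 (53 higher, 85 lower), of which 110 were also made without it, 0 of the 8 iron genes among them, and the Tfrc/Slc40a1 difference was −0.63 (sign-flip permutation over 11 pairs, adjusted p = 0.0176). Depth limits Slc40a1, Aco1 and Ireb2 most, with 3 to 44 reads per library.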
